A study of Mus musculus with 18 samples.

Results

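The comparison described here is cGAMP against PBS in endothelial cells (ECs) of the normal mammary fat pad, across all genes, with weight on genes outside the classical interferon response and on genes that fell. It rests on 6 of the 18 bulk RNA-seq libraries of the series, 3 from fat pads injected with PBS and 3 from fat pads injected with cGAMP, a cyclic dinucleotide that binds the sensor STING. The mice were wild-type FVB females without a tumour, and the fat pads were taken 3 h after the injection. The other 12 libraries came from ECs of MMTV-PyMT spontaneous tumours, in mice whose mammary epithelium expresses a viral oncogene, and of implanted breast tumours in FVB mice. Each tumour type again has 3 PBS and 3 cGAMP libraries, used to ask where normal ECs differ. They also entered the filter on low values and the estimate of the spread behind every SE and p-value. ECs were enriched with CD31 beads and sorted as live, CD45-negative and CD31-positive cells. A legend of the study gives 3 mice per group from 3 independent experiments. Which library belongs to which experiment was not stated, so p-values measure the spread between libraries of a group, pooled over all 18. The names of the 6 columns used give a treatment and a replicate number but no tissue, and they were assigned to normal ECs because the other 12 columns name a tumour.

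STING sits in the endoplasmic reticulum membrane and, once cGAMP is bound, activates the kinase TBK1, which switches on interferon regulatory factors and NF-kB. The best known outcome is a burst of interferon-stimulated genes, and ECs are among the cell types with abundant STING. Quiescent ECs also carry programmes that have little to do with immunity. Notch signalling keeps arterial identity, flow-sensing transcription factors keep vessels relaxed and non-thrombotic, and heat shock chaperones keep newly made proteins folded.

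Levels are FPKM, that is, fragments divided by gene length in kilobases and by a library scale, so genes can be set side by side per length. Whole reads recovered from these values amounted to between 9444927 and 10481271 per normal library. Of 16248 listed genes, 13983 reached at least 1 FPKM in at least 3 of 18 libraries and were tested with limma on log2(FPKM + 1). All log2 changes and standard errors (SE) below are on this scale, where the added 1 shrinks changes of weakly expressed genes. A gene passed when its adjusted p-value (limma, Benjamini-Hochberg) was under 0.05, and was called when it also changed at least 2-fold. The verbs rose and fell are kept for genes that passed. All 8 endothelial markers were listed, with a summed level of 959 to 1099 FPKM under PBS and 938 to 1028 FPKM under cGAMP. Mural markers such as Rgs5 and Acta2 summed to 1054 to 1178 and 856 to 1077 FPKM, and mammary epithelial markers other than milk protein genes to 293 to 362 and 322 to 368 FPKM. RNA of both cell types was thus present in every library. The mural sum was above the endothelial sum in every PBS library and in cGAMP 2 and cGAMP 3, and below it in cGAMP 1. Below, normal ECs stands for these sorted samples, and which cells a change came from was not tested. Leukocyte markers set 2 libraries apart, with a summed level of 107, 68.3 and 168 FPKM under PBS and 226, 51.1 and 54.7 FPKM under cGAMP, highest in PBS 3 and cGAMP 1. In bulk samples, fewer cells of a type and less RNA per cell cannot be told apart.

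cGAMP moved many genes of normal ECs by a little and few of them by a lot, and the direction depended on the size. Without a fold limit more genes fell (2538, 18.2% of those tested) than rose (1920, 13.7%). Both shares are the background for every list count in normal ECs below. At a log2 change of at least 0.5 the numbers were close, 1185 lower and 1232 higher. At 2-fold, 96 genes were called lower (0.687%) and 422 higher (3.02%), and at a log2 change of at least 2 only 5 were lower against 77 higher. Of the 422 higher genes, 107 carried an interferon-type symbol and 315 did not. Genes called lower had a median of 14.3 FPKM under PBS, against 2.90 FPKM for genes called higher and 4.61 FPKM for all tested genes. This order follows in part from the call, because the added 1 keeps weakly expressed genes from falling 2-fold on this scale. With a pseudocount of 0.1, 304 genes were called lower. Of the lower genes, 94.8% were protein-coding, against 72.5% of genes called higher and 85.4% of all tested genes. The 3 cGAMP and 3 PBS libraries did not overlap for 92 of the 96 lower genes and for all 422 higher genes, against 48.9% of all tested genes. The lower count rose to 157 when cGAMP 1 was left out.

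**Figure D1:**
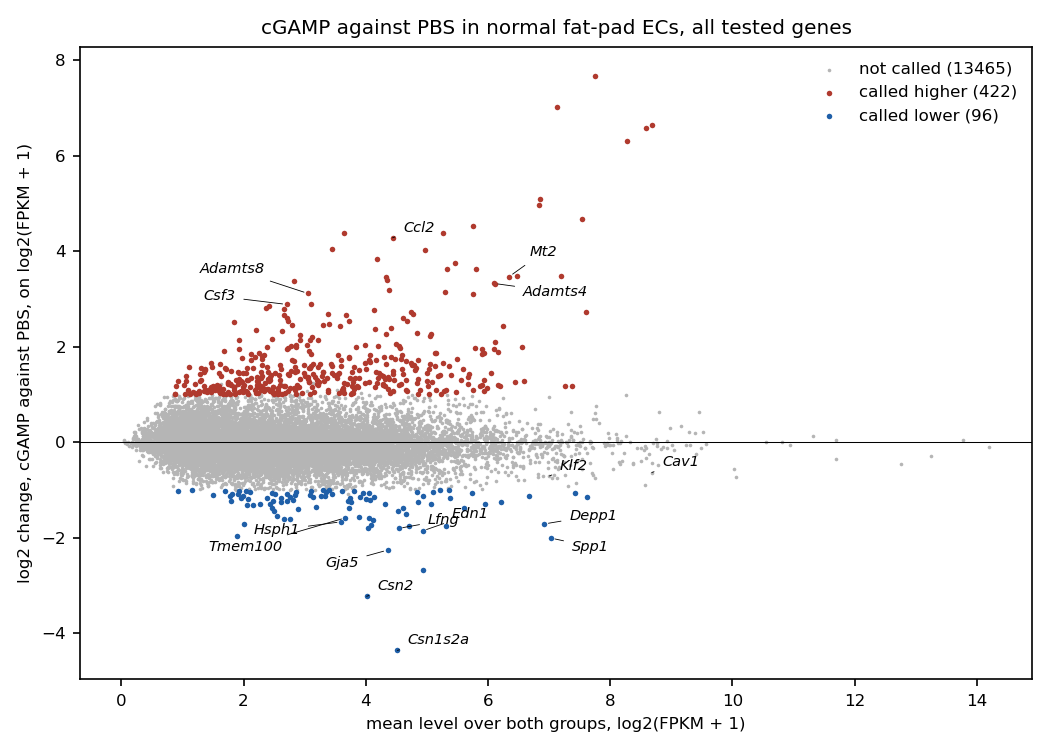
Each point is a tested gene, with its mean level over the 6 normal libraries on log2(FPKM + 1) on the x axis and its log2 change under cGAMP on the y axis. The 422 genes called higher (red) reach far above the 96 called lower (blue), and most of the named lower genes lie among moderately to highly expressed genes.

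The largest falls outside the milk protein genes included genes of a gap junction protein, a vasoconstrictor and several secreted and membrane proteins. Gja5, which encodes connexin 40, a gap junction protein of arterial ECs (chr3:96904693-97077416, GRCm38, plus strand), measured 35.03, 30.2 and 33.1 FPKM under PBS and 8.51, 4.904 and 5.25 FPKM under cGAMP (log2 change −2.26 ± 0.16 (SE), adjusted p = 6.87e-08). Edn1, the precursor of the vasoconstrictor endothelin 1 (chr13:42301476-42307990, plus strand), measured 40.4, 48.6 and 51.1 FPKM under PBS and 12.1, 9.77 and 15.01 FPKM under cGAMP (log2 change −1.86 ± 0.20 (SE), adjusted p = 6.09e-06). In both genes every cGAMP library lay far below every PBS library. The exons of each overlap a gene of the opposite strand (Gpr89 and Gm47118), and the sources do not say if reads were counted by strand. Reads of such pairs may be mixed. Cytl1, a small secreted protein, measured 58.6, 60.04 and 61.96 FPKM under PBS and 21.2, 18.4 and 13.1 FPKM under cGAMP (log2 change −1.75 ± 0.26 (SE)). Depp1, a target of FOXO factors, was abundant with 144, 176 and 234 FPKM under PBS and 41.7, 65.6 and 59.7 FPKM under cGAMP (log2 change −1.71 ± 0.28 (SE)).

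Spp1, the secreted matrix protein osteopontin, measured 229.6, 212 and 165 FPKM under PBS and 73.5, 20.6 and 77.2 FPKM under cGAMP (log2 change −2.01 ± 0.40 (SE), adjusted p = 0.00133), with cGAMP 2 the lowest library. Its exons overlap Gm42793 on the same strand. Under cGAMP, the milk genes Lalba (36.9, 10.95 and 35.7 FPKM) and Btn1a1 (13.4, 7.08 and 12.9 FPKM) were also lowest in cGAMP 2. The caseins Csn2, Csn1s1 and Csn1s2a were instead highest there. Which cells the Spp1 RNA came from was not tested. Further members of the 20 largest falls were Syt15, a synaptotagmin (−1.74 ± 0.19), the microtubule-binding gene Tppp (−1.61 ± 0.12), the chondroitin sulfotransferase Chst12 (−1.603 ± 0.16), the endothelial membrane genes Tmem100 (−1.58 ± 0.14) and Myct1 (−1.58 ± 0.15). The list also held the oestrogen-binding receptor Gper1 (−1.57 ± 0.12), the kallikrein Klk10 (−1.71 ± 0.37) and the lipase inhibitor G0s2 (−1.54 ± 0.37). Their libraries did not overlap between the groups, as the naming rule required. Of the 20, 19 were called lower in every fit that left out 1 normal library, and Csn2 was not.

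Several of the largest falls were genes of the lactating mammary epithelium rather than of ECs. The casein gene Csn1s2a measured 58.3, 52.05 and 17.4 FPKM under PBS and 0.424, 2.99 and 0.184 FPKM under cGAMP (log2 change −4.36 ± 0.88 (SE), adjusted p = 0.00145), and Csn1s1 measured 71.2, 46.5 and 22.4 FPKM under PBS and 2.35, 33.4 and 1.69 FPKM under cGAMP (log2 change −2.67 ± 0.91 (SE), adjusted p = 0.0349), where cGAMP 2 lay above PBS 3. The call of Csn1s1 was lost in 5 of 14 settings, among them without PBS 1 (−2.30), PBS 2 (−2.60), cGAMP 1 (−2.16) or cGAMP 3 (−2.01). Lalba, the milk component of lactose synthase, fell as well (−1.39 ± 0.41, not without PBS 1 at −1.16 or cGAMP 2 at −0.84). So did Btn1a1 of the milk fat globule (−1.75 ± 0.34), the milk enzyme gene Lao1 (−1.96 ± 0.45) and the oxytocin receptor gene Oxtr (−1.804 ± 0.22). Csn3 had −0.40 ± 0.26 and did not pass. Among the 12 mammary epithelial markers, 4 milk protein genes (Csn2, Csn1s1, Csn1s2a and Lalba) fell and 0 rose, and the keratins and Epcam did not pass. Epcam, a surface protein of epithelial cells, measured 68.5, 57.7 and 54.2 FPKM under PBS and 77.8, 78.1 and 70.8 FPKM under cGAMP. Casein genes are related to each other, so the counting can have split their reads, and the part of epithelial cell number in these falls was not tested.

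Many genes of arterial identity and Notch signalling fell in normal ECs. Notch receptors on ECs bind ligands of the Delta and Jagged families on neighbouring cells and, through RBPJ, switch on genes of the Hes and Hey families. Of the 30 list members, all tested, 19 (63.3%) passed lower and 1 passed higher, against 18.2% and 13.7% of all tested genes. The median log2 change was −0.72, against −0.04 for all tested genes. Without cGAMP 1, 18 passed lower. Among modifiers of the receptors, Lfng, a glycosyltransferase that changes which ligand Notch responds to, measured 28.1, 36.8 and 40.3 FPKM under PBS and 12.2, 8.303 and 7.71 FPKM under cGAMP (log2 change −1.804 ± 0.20 (SE), adjusted p = 6.49e-06). Among Notch targets, Hey1 measured 39.9, 31.4 and 37.8 FPKM under PBS and 12.5, 10.02 and 14.1 FPKM under cGAMP (log2 change −1.51 ± 0.18 (SE), adjusted p = 2e-05). Hey2 (−0.86 ± 0.16) and Hes1 (−0.83 ± 0.16) fell too, whereas Nrarp and Heyl did not pass.

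The ligand genes did not move as a block. Jag1 measured 56.7, 56.3 and 57.4 FPKM under PBS and 33.2, 29.5 and 33.2 FPKM under cGAMP (log2 change −0.81 ± 0.15 (SE)), and Jag2 measured 39.1, 39.2 and 39.5 FPKM under PBS and 23.04, 20.47 and 23.6 FPKM under cGAMP (log2 change −0.79 ± 0.13 (SE)). In both ligands the PBS libraries were nearly identical and the cGAMP libraries were all lower. Dll4, the main ligand of arterial and tip cells, fell less (−0.60 ± 0.18, adjusted p = 0.0209), and lost its call with the replicate block and without PBS 1 (−0.56), PBS 3 (−0.57), cGAMP 1 (−0.53) or cGAMP 2 (−0.58). Dll1 measured 28.9, 24.3 and 30.5 FPKM under PBS and 28.5, 24.5 and 21.96 FPKM under cGAMP with overlapping groups (−0.15 ± 0.16, adjusted p = 0.505). Of the receptors, Notch4 fell (−0.46 ± 0.15, adjusted p = 0.0300), a call that was lost without any 1 of the 6 libraries (−0.43 to −0.49). Notch1 measured 42.7, 40.3 and 42.8 FPKM under PBS and 45.1, 44.4 and 44.01 FPKM under cGAMP, which did not overlap but lay close together, and did not pass (0.08 ± 0.11, adjusted p = 0.595).

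Several arterial genes beyond the Notch pathway fell too. Vegfc, a growth factor for lymphatic vessels made by arterial ECs, measured 22.1, 18.8 and 22.98 FPKM under PBS and 9.52, 6.68 and 10.5 FPKM under cGAMP (log2 change −1.19 ± 0.22 (SE)). Sox18 measured 64.8, 76.98 and 70.4 FPKM under PBS and 37.2, 28.04 and 35.8 FPKM under cGAMP (log2 change −1.06 ± 0.20 (SE)), and the related transcription factor Sox17 had a log2 change of −0.75 ± 0.19. The gap junction gene Gja4, which encodes connexin 37 and is the usual partner of Gja5, measured 122, 119 and 119 FPKM under PBS and 60.04, 62.4 and 87.7 FPKM under cGAMP (log2 change −0.79 ± 0.19 (SE)). The groups did not overlap for any of these. Mgp, an inhibitor of calcification and of BMP ligands (−0.98 ± 0.20), the kinase gene Bmx (−0.86 ± 0.14), the semaphorin Sema3g (−0.75 ± 0.17), the elastic fibre gene Fbln5 (−0.72 ± 0.13) and the ephrin ligand Efnb2 (−0.72 ± 0.20) fell. The member that rose was Tm4sf1, a membrane protein of ECs (0.62 ± 0.11). Of 18 venous and capillary genes, 5 passed lower and 4 higher, with a median of −0.02, and between 2 and 4 passed in either direction when 1 library was left out.

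The fall of the arterial and Notch list was larger in normal ECs than in tumour ECs for many members, tested as the difference between the cGAMP effects. Of the list, 2 members passed lower in the MMTV-PyMT tumours (median 0.04) and 9 in the implanted ones (median −0.04). The difference was lower in normal ECs for 12 of 30 members against MMTV-PyMT ECs (5.48% of all tested genes) and for 14 against implanted ECs (12.5% of all tested genes), and higher for 0 in both (2.90% and 6.09% of all tested genes). Scaling by total reads, which moved the median difference of all genes from −0.04 to 0.19 against implanted ECs, gave 11 lower against MMTV-PyMT ECs and 10 lower and 2 higher against implanted ECs. Gja5 differed by −2.62 from MMTV-PyMT ECs (adjusted p = 6.09e-05) and by −1.48 from implanted ECs (adjusted p = 0.000347). Vegfc differed by −1.53 (adjusted p = 0.00804) and −1.29 (adjusted p = 0.00819). Hey1, which had log2 changes of −0.76 and −0.77 in the tumours, did not pass in either difference (adjusted p = 0.0883 and 0.0598).

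**Figure D2:**
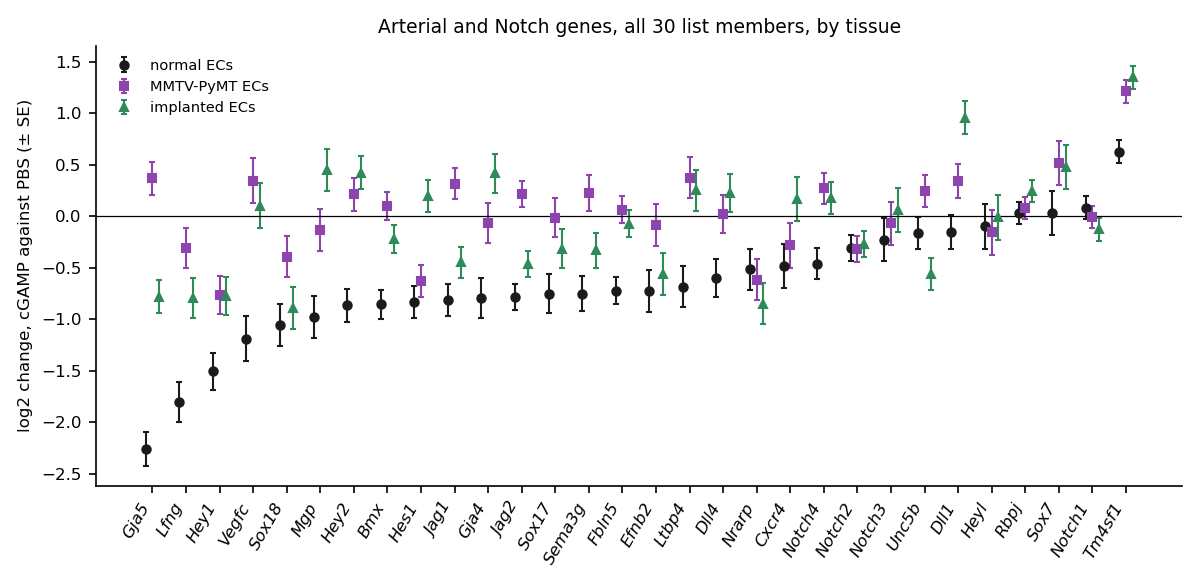
The 30 arterial and Notch genes are ordered by their log2 change in normal ECs (black circles), with MMTV-PyMT ECs (purple squares) and implanted ECs (green triangles) beside them and bars for the SE. From Gja5 at −2.26 to Dll4 at −0.60 most normal values lie below the tumour values, while Notch1 and the ligand Dll1 lie near 0 in normal ECs.

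The promoter of Lfng is shown because it holds the core recognition letters of RBPJ, TGGGAA, at 2 places in the 300 bases around its start (RefSeq, GRCm38.p6, chr5:140607091-140607390, plus strand, from 250 bases before the start to 50 after it). Capitals mark the matches, on either strand, at −135 and −108 from the start.
Lfng: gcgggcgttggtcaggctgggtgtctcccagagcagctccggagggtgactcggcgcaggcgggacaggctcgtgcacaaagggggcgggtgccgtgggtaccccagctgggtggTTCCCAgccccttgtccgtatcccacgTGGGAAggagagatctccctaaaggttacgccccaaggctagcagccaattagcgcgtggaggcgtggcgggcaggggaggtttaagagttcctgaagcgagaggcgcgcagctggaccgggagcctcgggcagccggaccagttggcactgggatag
The same 6 letters occurred in 31.4% of the 86 promoters of genes called lower, in 25.2% of the 321 promoters of genes called higher and in 23.6% of the 12584 promoters of all tested genes. They are common, and a match is no evidence of binding.

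Genes that set vascular tone and sense flow passed in both directions. Of 28 tested members of the shear, nitric oxide and vasoactive list, 14 (50%) passed lower and 4 (14.3%) higher (2 without cGAMP 3), against 18.2% and 13.7% of all tested genes, with a median of −0.43. The lower count dropped to 8 without PBS 3 or cGAMP 2. It was 9 with a replicate block, although the replicate numbers did not pair the libraries. Klf2, a transcription factor induced by laminar flow, measured 158, 130.2 and 187 FPKM under PBS and 115, 95.2 and 79.7 FPKM under cGAMP (log2 change −0.71 ± 0.24 (SE), adjusted p = 0.0340), and its relative Klf4 had −0.55 ± 0.19 (adjusted p = 0.0344). Klf2 lost its call without PBS 1 (−0.70), PBS 3 (−0.58), cGAMP 2 (−0.70) or cGAMP 3 (−0.58). Klf4 lost it without PBS 1 (−0.55), PBS 3 (−0.43), cGAMP 2 (−0.45) or cGAMP 3 (−0.57). Klf2 moved the other way in tumours, with log2 changes of 0.94 in MMTV-PyMT ECs (adjusted p = 0.0167) and 0.65 in implanted ECs (adjusted p = 0.0428). Both differences passed (adjusted p = 0.00853 and 0.0107). Nos3, the endothelial nitric oxide synthase, measured 26.7, 30.1 and 27.96 FPKM under PBS and 23.9, 19.9 and 15.6 FPKM under cGAMP and did not pass (−0.51 ± 0.23, adjusted p = 0.0974).

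Genes of caveolae, the small flask-shaped pits of the EC membrane, were among those that fell. Cavin2 measured 205, 222 and 267 FPKM under PBS and 117, 93.2 and 120.1 FPKM under cGAMP (log2 change −1.07 ± 0.16 (SE), adjusted p = 0.000149), and the highly expressed Cav1 measured 457, 517 and 518 FPKM under PBS and 297, 317 and 347 FPKM under cGAMP (log2 change −0.63 ± 0.14 (SE), adjusted p = 0.00299). Cav2 had a log2 change of −0.79 ± 0.14. In the pathway of the vasodilator peptide adrenomedullin, the receptor gene Calcrl measured 70.1, 78.00 and 86.6 FPKM under PBS and 42.9, 32.96 and 41.6 FPKM under cGAMP (log2 change −0.98 ± 0.16 (SE)) and fell more than in either tumour (difference −1.26 from MMTV-PyMT ECs, adjusted p = 0.00379, and −0.74 from implanted ECs, adjusted p = 0.0272, which was −0.43 and did not pass with scaling by total reads). Its partner Ramp3, which changes the ligand preference of the receptor, rose. It measured 1.72, 2.26 and 2.61 FPKM under PBS and 10.4, 11.9 and 6.93 FPKM under cGAMP (log2 change 1.73 ± 0.23 (SE)). Gch1, the first enzyme in making the nitric oxide synthase cofactor, rose too (1.15 ± 0.14), as did the endothelin receptor gene Ednrb (0.70 ± 0.20, not without cGAMP 3 at 0.63), whose ligand gene Edn1 fell.

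Of 33 tested G protein-coupled receptors and their regulators, 9 passed lower (27.3%) and 6 higher (18.2%), against 18.2% and 13.7% of all tested genes. The higher count was 3 without PBS 1, PBS 2 or cGAMP 2. Aplnr, the receptor for apelin on venous and sprouting ECs, measured 72.4, 101.0 and 88.1 FPKM under PBS and 26.7, 39.2 and 39.7 FPKM under cGAMP (log2 change −1.29 ± 0.22 (SE), adjusted p = 0.000459). S1pr4 (−1.23 ± 0.24) and the signalling brake Rgs3 (−0.93 ± 0.16) fell, while Rgs16, another brake, measured 34.7, 27.1 and 41.8 FPKM under PBS and 90.2, 68.4 and 100.1 FPKM under cGAMP (log2 change 1.300 ± 0.28 (SE)). Aplnr did not differ from its change in the tumours beyond the test (adjusted p = 0.0530 against MMTV-PyMT ECs and 0.0698 against implanted ECs).

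**Figure D3:**
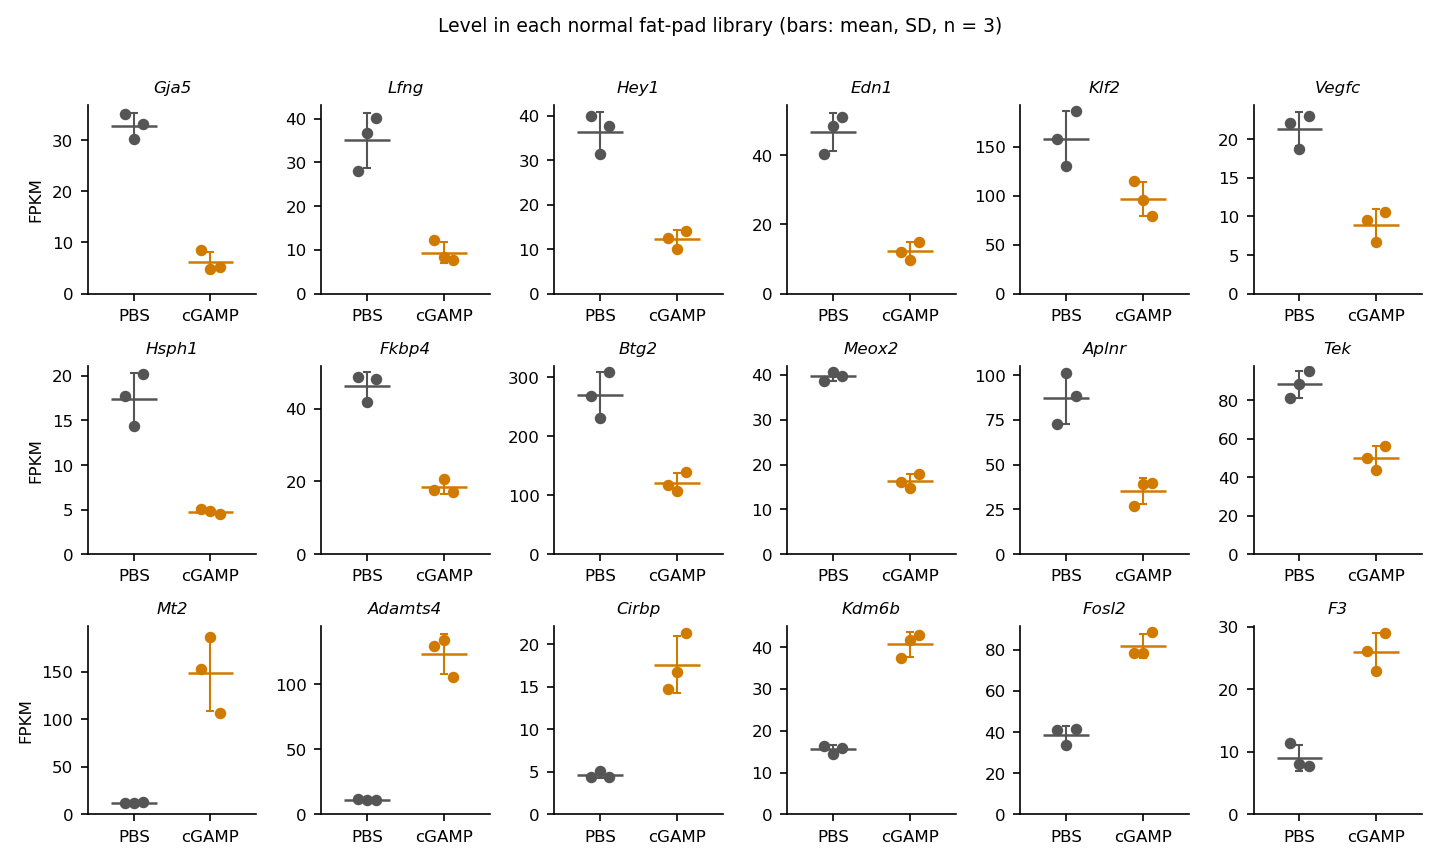
FPKM in each of the 3 PBS (grey) and 3 cGAMP (orange) libraries of normal ECs for 12 genes that fell (top 2 rows) and 6 that rose (bottom row), with the mean as a line and the SD (n = 3) as a bar, each panel on a linear axis from 0. In all 18 panels every cGAMP library lies on the same side of every PBS library.

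In the lists of growth factor signalling and of endothelial transcription factors more members passed lower than higher, and most did not pass. Over all tested genes, too, more passed lower (18.2%) than higher (13.7%). Of 23 VEGF, angiopoietin and tip cell genes, 6 passed lower (26.1%) and 1 higher. Tek, the angiopoietin receptor, was the endothelial marker that fell and measured 81.02, 88.5 and 95.3 FPKM under PBS and 50.02, 43.6 and 56.04 FPKM under cGAMP (log2 change −0.81 ± 0.18 (SE), adjusted p = 0.00246), while the VEGF receptors Kdr, Flt1 and Flt4 did not pass. Pdgfb, with which ECs recruit pericytes, measured 30.98, 35.7 and 32.96 FPKM under PBS and 18.04, 19.03 and 20.7 FPKM under cGAMP (log2 change −0.76 ± 0.16 (SE)). Plaur, the receptor of the protease urokinase, was the member that rose, with 5.31, 7.06 and 6.56 FPKM under PBS and 27.7, 27.8 and 20.04 FPKM under cGAMP (log2 change 1.83 ± 0.21 (SE)).

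Among 47 endothelial transcription factors, 19 (40.4%) passed lower and 1 higher, with a median of −0.24, and 12 passed lower without PBS 3. Meox2 measured 38.6, 40.7 and 39.9 FPKM under PBS and 16.2, 14.7 and 17.9 FPKM under cGAMP (log2 change −1.24 ± 0.14 (SE), adjusted p = 1.13e-05), with PBS libraries close together and all cGAMP libraries far lower. Hoxd9 (−0.94 ± 0.19), Hlx (−0.93 ± 0.19) and Gata2 (−0.86 ± 0.17) fell, and Foxf1 rose from a low level (1.65, 1.47 and 2.25 under PBS and 7.27, 4.38 and 4.84 under cGAMP, in FPKM, log2 change 1.204 ± 0.23 (SE)). The ETS factor Erg, a defining factor of ECs, measured 37.1, 38.05 and 44.8 FPKM under PBS and 40.05, 42.2 and 43.6 FPKM under cGAMP with overlapping groups and did not pass. Hdac7, an endothelial histone deacetylase of the chromatin list, measured 15.97, 18.9 and 19.00 FPKM under PBS and 6.78, 5.68 and 8.53 FPKM under cGAMP (log2 change −1.26 ± 0.13 (SE), adjusted p = 4.55e-06).

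In the TGF-beta and BMP list 6 of 32 passed lower and 3 higher. The share lower, 18.8%, was near the 18.2% of all tested genes. The lower count was 2 without PBS 2 or cGAMP 3 and 3 without PBS 1, PBS 3 or cGAMP 2. Acvrl1, the endothelial receptor ALK1, measured 48.1, 47.1 and 51.4 FPKM under PBS and 31.5, 24.3 and 29.3 FPKM under cGAMP (log2 change −0.77 ± 0.15 (SE)), and Inhbb, a subunit of activin B, rose with 29.2, 24.7 and 28.7 FPKM under PBS and 67.5, 80.1 and 68.9 FPKM under cGAMP (log2 change 1.36 ± 0.19 (SE)). In the Wnt list 7 of 23 passed lower (30.4%) and 0 higher, among them Dkk2 (−1.12 ± 0.19), the receptor gene Fzd4 (−0.62 ± 0.16) and the coreceptor gene Lrp6 (−0.47 ± 0.074). Guidance genes passed lower in 8 of 30 (26.7%) and higher in 2, with Epha4 at −1.005 ± 0.15 and Efna1 at −0.88 ± 0.16 against Sema4c, which measured 16.02, 15.5 and 16.03 FPKM under PBS and 44.1, 48.4 and 50.9 FPKM under cGAMP (log2 change 1.53 ± 0.14 (SE)).

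Junction genes and matrix genes passed in both directions. Of 25 junction genes, 7 passed lower (28.0%), Gja5 and Gja4 among them, and 3 higher. Tjp1, which ties tight junctions to actin, had −0.54 ± 0.13, and Ctnnb1, the beta-catenin of adherens junctions, −0.41 ± 0.10. Ocln, the tight junction protein occludin, rose and measured 3.77, 3.87 and 3.28 FPKM under PBS and 8.77, 10.6 and 8.72 FPKM under cGAMP (log2 change 1.16 ± 0.20 (SE)). Cdh5, the cadherin that defines EC contacts, did not pass. Of 32 collagen and basement membrane genes, 7 passed lower (21.9%), led by Spp1, and 2 higher, with Col8a1 at −0.75 ± 0.13 and Fbln2 at −0.73 ± 0.13. The adhesive glycoprotein gene Thbs1 rose with 46.6, 50.4 and 50.1 FPKM under PBS and 103, 165 and 99.8 FPKM under cGAMP (log2 change 1.27 ± 0.20 (SE)). Among genes of small GTPase signalling, the EC exchange factors Fgd5 (−1.004 ± 0.18) and Arhgef15 (−0.90 ± 0.17) fell, and Rnd1, a small GTPase that lowers contractility, measured 5.62, 5.74 and 6.25 FPKM under PBS and 47.5, 39.3 and 35.3 FPKM under cGAMP (log2 change 2.59 ± 0.23 (SE)).

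Several heat shock proteins fell in normal ECs, among them HSP110, HSP70 and small heat shock genes. HSP70 and HSP90 fold client proteins in cycles of ATP use, HSP110 (Hsph1) exchanges the nucleotide on HSP70, and Stip1, Fkbp4 and Ahsa1 bind HSP90. Of 15 heat shock list members, 8 (53.3%) passed lower and 1 higher, with a median of −0.44, and 8 passed lower without cGAMP 1. Hsph1 (chr5:149614287-149636376, GRCm38, minus strand) measured 17.7, 14.4 and 20.2 FPKM under PBS and 5.01, 4.86 and 4.44 FPKM under cGAMP (log2 change −1.67 ± 0.26 (SE), adjusted p = 0.000175). The small heat shock protein Hspb1 measured 194, 184 and 241 FPKM under PBS and 109.6, 99.5 and 114 FPKM under cGAMP (log2 change −0.92 ± 0.19 (SE)), and the constitutive HSP70 gene Hspa8 measured 252, 242 and 284 FPKM under PBS and 164, 174 and 146 FPKM under cGAMP (log2 change −0.68 ± 0.14 (SE)). In none of them did the groups overlap.

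The inducible HSP70 genes Hspa1a and Hspa1b are near-identical copies, so their separate values are uncertain, with log2 changes of −0.87 ± 0.23 and −0.83 ± 0.24. Hspa1b lost its call without PBS 1 (−0.64), PBS 3 (−0.77) or cGAMP 2 (−0.76). Hspd1, the mitochondrial chaperonin, had −0.65 ± 0.15, and Hsp90ab1, the constitutive HSP90, −0.44 ± 0.11. Hsp90aa1, the inducible HSP90, measured 75.1, 59.97 and 75.7 FPKM under PBS and 62.5, 61.7 and 53.98 FPKM under cGAMP and did not pass (−0.23 ± 0.16, adjusted p = 0.276). Neither did Hsf1, the heat shock factor (−0.18 ± 0.11, adjusted p = 0.213). Bag3, a HSP70 cochaperone, rose (0.50 ± 0.13). Of 5 cochaperone genes picked after their values were seen, all 5 passed lower, and they are given as a description. Fkbp4 measured 48.9, 41.8 and 48.2 FPKM under PBS and 17.6, 20.54 and 17.2 FPKM under cGAMP (log2 change −1.28 ± 0.15 (SE)), Stip1 had −1.04 ± 0.16, Chordc1 −1.11 ± 0.15, Ahsa1 −0.85 ± 0.15 and Cacybp −0.71 ± 0.14.

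Tumour ECs did not show these falls to the same extent for part of the chaperones. In the heat shock list 0 of 15 passed lower in MMTV-PyMT tumours (4.57% of all tested genes) and 2 in implanted tumours (18.8%). The difference passed lower for 3 members against each tumour type (5.48% and 12.5% of all tested genes). With scaling by total reads, 3 passed lower against MMTV-PyMT ECs and 2 against implanted ECs. That scaling moved the list median against implanted ECs from −0.20 to 0.11. Hsph1 differed by −2.33 from MMTV-PyMT ECs (adjusted p = 0.00184) and by −1.38 from implanted ECs (adjusted p = 0.0142), and Chordc1 by −1.25 (adjusted p = 0.00379) and −0.82 (adjusted p = 0.0149, which was −0.57 and did not pass with scaling by total reads). Hspb1, which fell in implanted ECs too (−0.73, adjusted p = 0.00760), did not pass in either difference.

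Promoters of 4 chaperone genes that fell are printed because each holds GAANNTTC, a pair of inverted units of the heat shock element, within the 300 bases around the start (RefSeq, GRCm38.p6). The motif was chosen after the falls were seen. Only this order of the units was searched, so unmarked bases can hold the element in other forms. Capitals mark the matches, at 42 from the start in Hsph1 (chr5:149636287-149636586, minus strand), at −4 and 7 in Chordc1 (chr9:18292017-18292316, plus strand), at −117 and −97 in Hspb1 (chr5:135887669-135887968, plus strand) and at −104 in Hspa1a (chr17:34972107-34972406, minus strand).
Hsph1: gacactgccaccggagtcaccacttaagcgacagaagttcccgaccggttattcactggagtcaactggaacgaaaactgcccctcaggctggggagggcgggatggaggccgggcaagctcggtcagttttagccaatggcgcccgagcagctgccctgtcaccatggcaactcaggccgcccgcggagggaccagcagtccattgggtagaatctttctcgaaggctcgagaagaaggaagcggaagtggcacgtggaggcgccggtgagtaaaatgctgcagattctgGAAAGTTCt
Chordc1: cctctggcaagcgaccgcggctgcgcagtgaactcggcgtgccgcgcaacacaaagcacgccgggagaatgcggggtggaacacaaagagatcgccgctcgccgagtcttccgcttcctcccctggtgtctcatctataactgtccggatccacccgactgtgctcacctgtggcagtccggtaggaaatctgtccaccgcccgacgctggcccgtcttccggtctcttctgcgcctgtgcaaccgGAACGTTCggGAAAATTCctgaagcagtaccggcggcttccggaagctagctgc
Hspb1: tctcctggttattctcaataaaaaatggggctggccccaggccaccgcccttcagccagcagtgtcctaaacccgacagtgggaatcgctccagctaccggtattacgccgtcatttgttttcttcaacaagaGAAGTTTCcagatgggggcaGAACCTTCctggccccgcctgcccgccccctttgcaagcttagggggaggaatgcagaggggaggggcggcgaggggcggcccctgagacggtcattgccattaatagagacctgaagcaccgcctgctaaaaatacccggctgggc
Hspa1a: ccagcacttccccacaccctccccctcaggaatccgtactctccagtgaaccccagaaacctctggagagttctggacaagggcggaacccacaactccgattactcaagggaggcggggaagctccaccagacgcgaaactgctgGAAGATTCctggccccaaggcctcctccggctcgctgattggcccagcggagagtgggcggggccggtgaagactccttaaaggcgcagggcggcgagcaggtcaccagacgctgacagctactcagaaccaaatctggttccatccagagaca
These 8 letters, which read the same on both strands, occurred in 11 of 22 promoters (50%) of the heat shock and cochaperone genes, for 16 of whose 20 members a promoter was at hand. They occurred in 11.6% of the promoters of genes called lower, in 5.92% of those of genes called higher and in 5.475% of all promoters of tested genes. The promoters of Bag3, which rose, and of Hspe1, which did not pass and starts head to head with Hspd1, hold these letters too. Among the cochaperones that fell, the promoters of Chordc1 and Fkbp4 hold them, and those of Stip1, Ahsa1 and Cacybp do not. Whether the motif has a part in the falls was not tested.

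**Figure D4:**
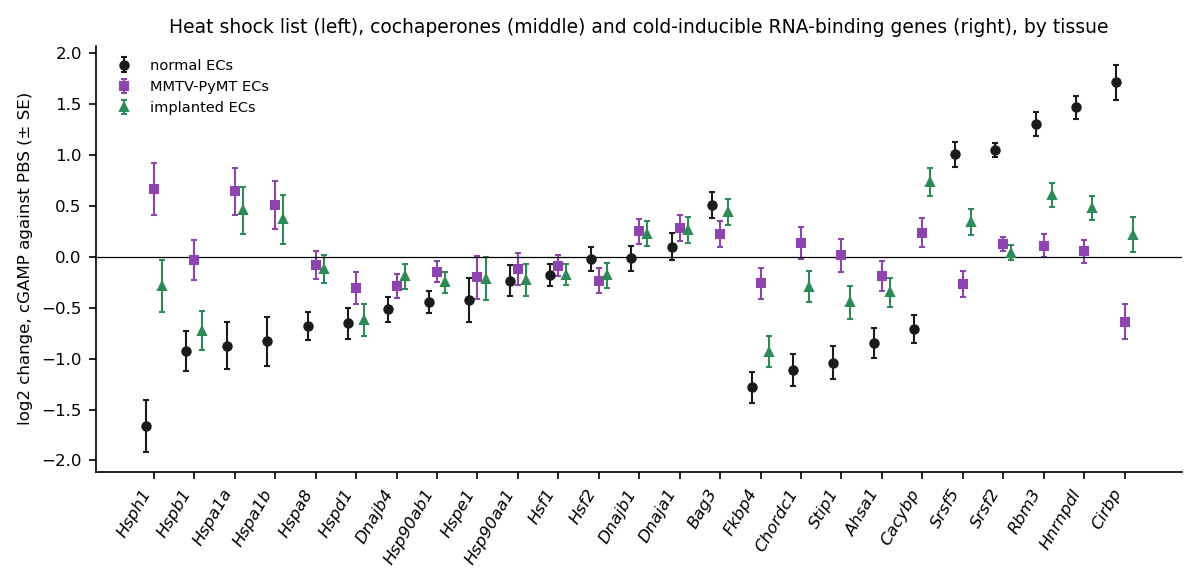
Log2 change under cGAMP with its SE in normal ECs (black circles), MMTV-PyMT ECs (purple squares) and implanted ECs (green triangles). Shown are the 15 heat shock genes, the 5 cochaperones and the 5 RNA-binding and splicing genes with the cold-inducible Cirbp and Rbm3. Each set is in the order of its values in normal ECs. The black circles run from −1.67 (Hsph1) to 1.71 (Cirbp), while most tumour values lie closer to 0.

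The stress pathways of the endoplasmic reticulum divided. Of 28 unfolded protein and integrated stress genes, 11 passed lower (39.3%) and 4 higher. Among those lower were the reticulum folding enzymes Pdia4, which measured 60.4, 63.4 and 64.9 FPKM under PBS and 36.9, 41.2 and 39.7 FPKM under cGAMP (log2 change −0.67 ± 0.10 (SE)), and Pdia6 (−0.52 ± 0.096), the degradation factor gene Herpud1 (−0.55 ± 0.13) and the kinase-like Trib3 (−0.96 ± 0.13). Higher were Atf4, the transcription factor of the integrated stress response, with 36.8, 34.9 and 38.7 FPKM under PBS and 68.97, 66.99 and 60.2 FPKM under cGAMP (log2 change 0.81 ± 0.094 (SE)), and Ppp1r15a, the phosphatase subunit that ends it, with 39.6, 28.7 and 49.4 FPKM under PBS and 82.4, 75.03 and 99.03 FPKM under cGAMP (log2 change 1.13 ± 0.23 (SE)). The abundant reticulum chaperone gene Hspa5 measured 160.01, 149 and 178 FPKM under PBS and 157, 156 and 149 FPKM under cGAMP and did not pass.

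Cirbp and Rbm3, RNA-binding genes known to rise when cells are cooled, were higher, and so were the RNA-binding and splicing genes Hnrnpdl, Srsf2 and Srsf5. The 5 genes were picked after their values were seen, all 5 passed higher, and no count over them is evidence. Cirbp, the cold-inducible RNA-binding protein, measured 4.36, 5.05 and 4.43 FPKM under PBS and 14.7, 16.7 and 21.3 FPKM under cGAMP (log2 change 1.71 ± 0.17 (SE), adjusted p = 2.47e-06). Rbm3, its relative, measured 13.6, 13.4 and 13.4 FPKM under PBS and 35.3, 38.6 and 30.7 FPKM under cGAMP (log2 change 1.304 ± 0.12 (SE), adjusted p = 7.73e-07). The groups were far apart in both, and the PBS libraries of Rbm3 were nearly equal. The RNA-binding gene Hnrnpdl (1.47 ± 0.11) and the splicing factor genes Srsf2 (1.05 ± 0.07) and Srsf5 (1.004 ± 0.13) rose. All 5 rose more than in either tumour type by the test of the difference. For Cirbp, which fell in MMTV-PyMT ECs (−0.64, adjusted p = 0.0222), the difference was 2.35 (adjusted p = 0.000152), and it was 1.498 from implanted ECs (adjusted p = 0.000497). Rbm3 and Srsf2 overlap genes of the opposite strand.

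Outside the interferon genes, metallothioneins and secreted proteases were among the largest rises. Mt2, a small protein that binds zinc and copper, measured 11.7, 11.9 and 13.03 FPKM under PBS and 152, 187 and 107 FPKM under cGAMP (log2 change 3.47 ± 0.27 (SE), adjusted p = 1.66e-07), and Mt1 measured 23.9, 21.1 and 28.7 FPKM under PBS and 112, 142 and 78.9 FPKM under cGAMP (log2 change 2.104 ± 0.20 (SE), adjusted p = 1.87e-06). The antioxidant genes Txnrd1 (1.204 ± 0.086) and Hmox1 (0.91 ± 0.14) rose less. Mt1 rose more than in MMTV-PyMT ECs (difference 1.34, adjusted p = 0.0105) and implanted ECs (1.11, adjusted p = 0.0129). Mt2 rose more than in MMTV-PyMT ECs (1.73, adjusted p = 0.0118) but not by the test in implanted ECs (adjusted p = 0.0671).

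The matrix proteases Adamts4, which cleaves proteoglycans, and Adamts8 rose in step. Adamts4 measured 11.5, 11.1 and 11.5 FPKM under PBS and 129.7, 134 and 106 FPKM under cGAMP (log2 change 3.32 ± 0.24 (SE), adjusted p = 6.43e-08), a 10.9-fold ratio of means, and its exons overlap a gene of the other strand. Adamts8 measured 0.936, 0.621 and 0.5601 FPKM under PBS and 12.6, 17.5 and 11.6 FPKM under cGAMP (log2 change 3.11 ± 0.14 (SE), adjusted p = 3.06e-10). Adamts9 (1.87 ± 0.22), Adamts1 (0.98 ± 0.22) and Has2, which makes hyaluronan (1.86 ± 0.24), rose as well. Adamts4 rose more in normal than in MMTV-PyMT ECs (difference 1.25, adjusted p = 0.0304) and implanted ECs (1.73, adjusted p = 0.00196). So did Adamts8 (0.81, adjusted p = 0.0221, and 1.48, adjusted p = 0.000135).

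Of 19 cytokine and chemokine genes outside the interferon list, 8 passed higher (42.1%) and 1 lower. The monocyte chemokine gene Ccl2 measured 0.893, 0.667 and 1.38 FPKM under PBS and 28.2, 65.8 and 27.2 FPKM under cGAMP (log2 change 4.28 ± 0.36 (SE), adjusted p = 3.91e-07), with cGAMP 2 the highest. Csf3, the growth factor of neutrophils, measured 0.479, 0.537 and 0.522 FPKM under PBS and 14.9, 8.81 and 7.94 FPKM under cGAMP (log2 change 2.88 ± 0.27 (SE)), and Il6 measured 5.96, 5.14 and 8.86 FPKM under PBS and 44.9, 41.5 and 41.6 FPKM under cGAMP (log2 change 2.54 ± 0.37 (SE)). The member that fell was Il33, an alarmin stored in EC nuclei, with 6.57, 9.76 and 9.94 FPKM under PBS and 3.21, 2.99 and 4.43 FPKM under cGAMP (log2 change −1.097 ± 0.25 (SE), adjusted p = 0.00347), and it rose in implanted ECs (1.98, adjusted p = 1.11e-05). Leukocyte markers were highest in cGAMP 1, where Csf3 and Ccl7 and, by a little, Il6 were highest too, whereas Ccl2 was highest in cGAMP 2. Without cGAMP 1 the list had 7 higher and 1 lower, and the part of leukocytes in these values was not tested further.

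Other large rises were Hcar2, a receptor for hydroxybutyrate (2.65 ± 0.27), the endothelial lipase gene Lipg (2.45 ± 0.18), Socs1, a brake on interferon signalling (2.43 ± 0.18), and the ubiquitin ligase gene Neurl3 (2.37 ± 0.24). They also included Stx11 (2.33 ± 0.15), the chemerin-binding receptor gene Ccrl2 (2.26 ± 0.17), the uridine phosphorylase gene Upp1 (2.22 ± 0.21), Car13 (2.03 ± 0.16), Ccl7 (2.54 ± 0.33), Tnf (2.67 ± 0.27) and the locus BC023105 (2.88 ± 0.19). Olfr56 (2.84 ± 0.17) is uncertain because its exons overlap the interferon gene Ifi47 on the same strand. Lipg measured 1.69, 1.97 and 2.33 FPKM under PBS and 13.2, 20.2 and 13.4 FPKM under cGAMP and rose less than in implanted ECs (difference −2.15, adjusted p = 4.48e-05).

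Among leukocyte adhesion genes 5 of 14 passed higher (35.7%) and 2 lower (14.3%). Selp, the selectin stored in EC granules, measured 42.4, 42.7 and 44.4 FPKM under PBS and 138, 86.2 and 81.6 FPKM under cGAMP (log2 change 1.18 ± 0.26 (SE)), and Vcam1 measured 14.4, 18.3 and 17.9 FPKM under PBS and 43.2, 36.3 and 25.9 FPKM under cGAMP (log2 change 0.996 ± 0.25 (SE), adjusted p = 0.00600). Vcam1 rose far less than in MMTV-PyMT ECs (difference −2.45, adjusted p = 0.00108) and implanted ECs (−2.42, adjusted p = 0.000205). Selp was highest in cGAMP 1, the library with the highest leukocyte markers. Icam2, a constitutive adhesion molecule of resting ECs, fell (−0.55 ± 0.17, not without PBS 3 at −0.51 or cGAMP 3 at −0.52).

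Of 19 coagulation and fibrinolysis genes 7 passed higher (36.8%, 4 without PBS 2 or cGAMP 2) and 3 lower (15.8%). F3, the tissue factor that starts clotting, measured 11.4, 8.04 and 7.71 FPKM under PBS and 26.05, 23.00 and 28.98 FPKM under cGAMP (log2 change 1.44 ± 0.23 (SE), adjusted p = 0.000219). This rise was larger than in MMTV-PyMT ECs (1.29, adjusted p = 0.0220) and implanted ECs (0.99, adjusted p = 0.0424). Thbd, the anticoagulant thrombomodulin, measured 151, 168 and 183 FPKM under PBS and 127, 101.3 and 110.3 FPKM under cGAMP (log2 change −0.57 ± 0.19 (SE), adjusted p = 0.0341), a call lost without PBS 2 (−0.56), PBS 3 (−0.50), cGAMP 2 (−0.49) or cGAMP 3 (−0.55). Vwf, the clotting factor carrier stored in EC granules, fell too (−0.66 ± 0.22), a call lost with the replicate block and without PBS 2 (−0.63), PBS 3 (−0.62), cGAMP 2 (−0.59) or cGAMP 3 (−0.60). Plat, which activates plasminogen, rose (0.81 ± 0.18).

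Immediate-early genes, which respond to stimuli within minutes, moved in both directions. Of 26 tested, 10 passed higher (38.5%, 6 without PBS 2) and 6 lower (23.1%). Fos measured 1377, 1120 and 1481 FPKM under PBS and 849, 735 and 793 FPKM under cGAMP (log2 change −0.73 ± 0.15 (SE)), and the growth inhibitor gene Btg2 measured 269, 231 and 309.6 FPKM under PBS and 117, 108 and 139 FPKM under cGAMP (log2 change −1.15 ± 0.13 (SE)). Another AP-1 gene, Fosl2, measured 40.8, 33.7 and 41.5 FPKM under PBS and 78.5, 78.2 and 88.7 FPKM under cGAMP (log2 change 1.07 ± 0.13 (SE)), Fosl1 rose from a low level (0.333, 0.332 and 0.136 under PBS and 2.49, 2.62 and 2.99 under cGAMP, in FPKM), and Maff (1.32 ± 0.18), Myc (0.88 ± 0.11) and Arc (1.67 ± 0.17) rose. Of the ERK feedback genes 5 of 21 passed higher (3 without PBS 3 or cGAMP 3) and 2 lower, with Spry4 at 0.82 ± 0.20 and Dusp1 at −0.85 ± 0.16. The YAP and TEAD list holds genes of the factors themselves beside targets. Of its 20 tested members 5 passed higher and 8 lower (40%). The higher count was 2 or 3 without any 1 library other than cGAMP 1. Those higher were F3 and the factor genes Tead1, Tead3, Tead4 and Yap1. Among those lower were Ccn2 (−0.73 ± 0.19) and Amot (−0.69 ± 0.11).

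Of 34 death genes 9 passed higher (26.5%) and 3 lower (8.82%), against 13.7% and 18.2% of all tested genes. Of those lower, Tradd (−0.48) and Casp6 (−0.37) did not pass with the normal libraries alone, nor in several fits without 1 library. The necroptosis genes Mlkl, with 3.64, 4.06 and 4.81 FPKM under PBS and 16.5, 20.1 and 15.3 FPKM under cGAMP (log2 change 1.82 ± 0.13 (SE)), and Ripk3 (1.74 ± 0.22) led the rises, followed by Casp4 (1.59 ± 0.13) and the BH3-only gene Pmaip1 (1.27 ± 0.22). Tnfrsf10b, a TRAIL death receptor, measured 6.28, 5.77 and 6.16 FPKM under PBS and 10.8, 11.8 and 14.6 FPKM under cGAMP (log2 change 0.91 ± 0.16 (SE)) and rose more than in MMTV-PyMT ECs (0.93, adjusted p = 0.0214) and implanted ECs (1.09, adjusted p = 0.00359). Among chromatin genes 10 of 38 passed lower (26.3%) and 7 higher (18.4%), with Kdm6b, the demethylase of the polycomb mark, at 16.5, 14.4 and 15.8 FPKM under PBS and 37.3, 41.7 and 42.9 FPKM under cGAMP (log2 change 1.33 ± 0.10 (SE)) and Ezh1, a polycomb methyltransferase, at −0.80 ± 0.089.

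The metabolic lists held genes that passed in either direction, beside 13.7% higher and 18.2% lower over all tested genes. Of 30 glycolysis and hypoxia genes 9 passed higher (30%) and 5 lower (16.7%, 3 without PBS 1, PBS 2, PBS 3 or cGAMP 2). Pfkfb3, whose product drives glycolysis in sprouting ECs, measured 18.1, 19.97 and 20.6 FPKM under PBS and 55.2, 63.8 and 64.00 FPKM under cGAMP (log2 change 1.59 ± 0.17 (SE)), and Hk2 rose from about 1 FPKM (0.98 ± 0.23), while the glycolytic enzyme gene Pfkm fell slightly (−0.44 ± 0.11). Fatty acid genes passed lower in 9 of 32 (28.1%) and higher in 4 (12.5%), with the lipid droplet gene Plin2 at 42.5, 47.7 and 35.7 FPKM under PBS and 87.3, 127 and 82.8 FPKM under cGAMP (log2 change 1.203 ± 0.14 (SE)) and the partner receptor gene Rxra at −0.62 ± 0.14. Cholesterol genes passed higher in 5 of 32 (15.6%, 2 without PBS 3) and lower in 2 (6.25%). The largest rise was that of Ch25h (1.37 ± 0.32), an enzyme induced by interferon. It rose less than in MMTV-PyMT ECs (−2.05, adjusted p = 0.0116) and implanted ECs (−1.45, adjusted p = 0.0342, which was −1.13 and did not pass with scaling by total reads). Of 18 genes that respond to glucocorticoids 4 passed higher (22.2%), the cochaperone gene Fkbp5 among them, and 3 lower (16.7%). Among those lower, Ddit4 measured 118, 137 and 162 FPKM under PBS and 59.4, 64.2 and 65.95 FPKM under cGAMP (log2 change −1.12 ± 0.13 (SE)). Of 19 clock genes 2 passed in each direction (10.5%).

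The large housekeeping families are given by their counts. Of 83 cytosolic ribosomal protein genes 0 passed higher and 1 lower, of 76 nuclear OXPHOS subunit genes 0 and 7 (9.21%, 3 without PBS 3 and 4 without PBS 2, cGAMP 1 or cGAMP 3), and of 18 aminoacyl-tRNA synthetase genes 3 (16.7%) and 0. Proteasome subunit genes outside the immunoproteasome passed higher in 6 of 33 (18.2%, 1 without cGAMP 1 and 2 or 3 without PBS 1, PBS 2, PBS 3 or cGAMP 2) and lower in 1, with Psma3 at 0.41 ± 0.069. Cell cycle genes passed higher in 5 of 38 and lower in 3, and Pcna, the DNA polymerase clamp, measured 30.8, 30.1 and 31.9 FPKM under PBS and 53.03, 55.7 and 51.8 FPKM under cGAMP (log2 change 0.77 ± 0.061 (SE), adjusted p = 1.83e-07). Of the zinc finger genes named Zfp, 103 of 301 passed lower (34.2%) and 14 higher (4.65%), against 18.2% and 13.7% of all tested genes. Their median was −0.24, and Zfp521 (−1.08 ± 0.16) and Zfp760 (−1.11 ± 0.12) were among those lower. The medians in the tumours were −0.19 (MMTV-PyMT) and −0.23 (implanted). In normal ECs 18 passed lower when a mean of at least 5 FPKM was required. That filter tests fewer genes, so this count cannot be set against the 103. Solute carriers passed in equal shares (44 of 216 higher and 43 lower).

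**Figure D5:**
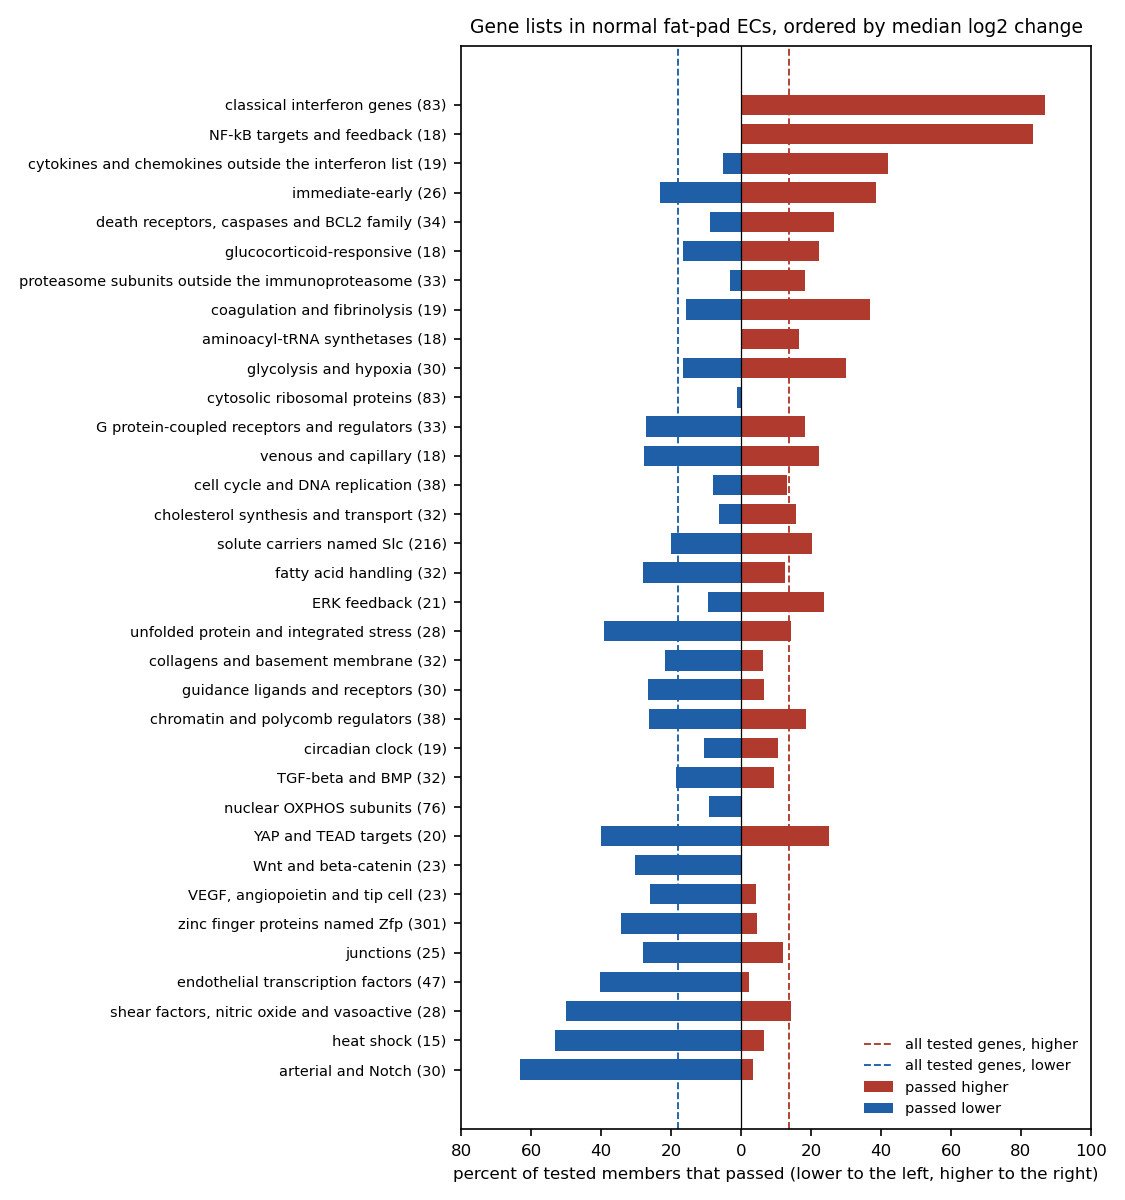
Share of the tested members of each list that passed higher (red, to the right) or lower (blue, to the left) in normal ECs, for reported lists, each with at least 15 tested members (number in brackets), ordered by median log2 change. Dashed lines mark the shares over all tested genes, 13.7% higher and 18.2% lower, and the arterial and Notch list and the heat shock list stand at the bottom with 63.3% and 53.3% lower.

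The genes called in normal ECs were also looked up in the tumours, and whether rises and falls were shared to a different extent was not tested. Of the 422 genes called higher in normal ECs, 299 passed higher in MMTV-PyMT tumour ECs (7.42% of all tested genes did) and 342 in ECs of implanted tumours (20.3%). Of the 96 genes called lower, 9 passed lower in MMTV-PyMT ECs (4.57% of all tested genes), with a median log2 change of −0.08 there. In implanted ECs, 48 of the 96 did so (18.8% of all tested genes), with a median of −0.59. The difference itself passed with the same sign for 71 of the 96 against MMTV-PyMT ECs, for 44 against implanted ECs and for 40 against both. It passed with the opposite sign for 0. Because the 96 were picked for their fall in normal ECs, these counts describe them and are not independent support. Genes with a larger rise than in both tumours numbered 39 of 422, and 18 rose less than in both, 12 of which carried an interferon-type symbol.

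Promoters of genes called lower held the letters of the interferon element about as often as all promoters. That element, 2 GAAA units with 2 bases between them, stood in 3.49% of promoters of genes called lower, 17.4% of those of genes called higher and 3.07% of all. The AP-1 letters TGAGTCA stood in 3.49%, 10.3% and 3.997%, the NF-kB-like element (GGGA and TTCC with 2 bases between them) in 2.33%, 3.74% and 1.55% and the looser GGAANNNCC, which overlaps it, in 16.3%, 27.7% and 21.8%. The E-box CACGTG stood in 10.5%, 8.10% and 9.86%, and TATAAA in 13.95%, 13.7% and 7.33%. All were searched on both strands, a match is a description and not a site, and nothing follows about a factor from a missing match.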

How the data were processed

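The members and gene lists were chosen with earlier results of these data known, and 2 of the 39 lists, the motif GAANNTTC and some named genes after their values were seen. Results for 1 list and a few genes are not reported here. The authors aligned reads to mm10 with STAR 2.7, counted them per gene with HTSeq-count and deposited 1 table of FPKM values for all 18 libraries; how FPKM were made from the counts and whether counting used the strand are not given in the sources used here, although the kit was directional. Every value was above 0. Columns without a sample numbered 0. From the steps of the FPKM values and GENCODE M21 gene lengths, whole reads (within 0.05 of a whole number) were recovered for 16247 of 16248 genes (99.99%), which gave 9124935 to 12129416 reads per library, and the FPKM denominators equalled median-of-ratios size factors. Reads carry no molecular identifiers, so they show counting error only.

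Genes with at least 1 FPKM in at least 3 of 18 libraries were tested (13983, with 2265 below the filter). limma 3.58.1 in R 4.3.3 was fitted to log2(FPKM + 1) with 1 mean per group over all 18 libraries (lmFit, contrasts.fit, eBayes with a trend, 2-sided), and p-values were adjusted with the Benjamini-Hochberg method. The difference between tissues was an interaction contrast of the same fit, and the tissues share no library. Lists are described by counts and medians, with no test. Genes were named by rule: the 20 largest falls and the 20 largest rises outside interferon symbols among called genes with no overlap of groups, up to 5 passed members per list and direction with members that define a list, the 10 largest falls and rises that passed in both differences, and the sensor with its kinase; further genes were added after their values were seen. On simulated data for normal ECs with 13982 genes, 100%, 90%, 88% and 70% of 50 genes each changed by factors of 4, 0.25, 2 and 0.5 passed. The shares called were 90%, 76%, 18% and 6%. Of 13782 unchanged genes 13 passed and 2 were called. Replicates differed by more than sampling noise (chi-square per gene 4.08 to 12.3), so each counted as 1. The replicate numbers did not pair the libraries (correlation of deviations −0.006, 0.263 and −0.114 for numbers 1, 2 and 3). Alternatives were another pseudocount, filters, quantile normalization, scaling by total reads, voom on recovered reads, the normal libraries alone, a replicate block and leaving out each library. Promoters (250 bases before to 50 after a start) are from RefSeq, GRCm38.p6, and 9831 of 13983 tested genes had at least 1. Gene coordinates are from GENCODE M21 (GRCm38) and count from 1.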

Additional observations from a re-analysis of the deposited data

Results flagged for a closer look

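Of the genes named by rule or added to them, 60 had a cGAMP effect in normal ECs that differed the same way from that in both MMTV-PyMT and implanted tumour ECs, each by the test of the difference (limma, Benjamini-Hochberg adjusted p-value under 0.05). For each gene the smaller of the 2 differences is given in brackets, as normal minus tumour on the log2 scale.

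Among genes with a lower effect in normal ECs, implanted ECs were the nearer tumour for Gja5 (−1.48), Edn1 (−1.91), Lfng (−1.01), Syt15 (−1.12), Hsph1 (−1.38), Tppp (−0.50), Chst12 (−0.77), Myct1 (−0.79), Gper1 (−1.35), Vcam1 (−2.42), Icam2 (−0.92), Vegfc (−1.29), Calcrl (−0.74), Ch25h (−1.45), Ptpn14 (−0.62), Hspa1a (−1.33), Hspa1b (−1.20), Fbln5 (−0.65), Arhgef15 (−0.94), Ezh1 (−0.37), Zfp109 (−0.58), Chordc1 (−0.82), Klf2 (−1.35), Notch4 (−0.64) and Bmx (−0.63). MMTV-PyMT ECs were the nearer tumour for Cytl1 (−1.67), Depp1 (−1.94), Tmem100 (−1.42), Il33 (−1.36), Tm4sf1 (−0.59), Ehd4 (−1.10), Trib3 (−0.77), Col8a1 (−0.81), Fbln2 (−0.93), Rhob (−0.99), Zfp521 (−1.29), Cacybp (−0.94) and Hey2 (−1.08). Vcam1, Ch25h and Tm4sf1 are genes that rose in normal ECs, but by less than in the tumours, and the others fell. Ezh1 had the smallest of these differences (adjusted p = 0.0486 for the larger of its 2 p-values). Some of the genes that fell in normal ECs rose in a tumour type. In implanted ECs Tmem100 rose by 0.52, Cacybp by 0.74, Klf2 by 0.65, Ehd4 by 0.99, Rhob by 0.86, Col8a1 by 0.51, Hey2 by 0.42 and Il33 by 1.98. In MMTV-PyMT ECs Klf2 (0.94), Ehd4 (0.69) and Arhgef15 (0.60) rose.

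Among genes with a higher effect in normal ECs, implanted ECs were the nearer tumour for Mt1 (1.11), Cirbp (1.498), Hnrnpdl (0.99), F3 (0.99), Rell1 (0.65), Litaf (0.93), Inhbb (0.94), Pcna (0.39), Kdm6b (0.87), Rbm3 (0.70), Srsf5 (0.66), Txnrd1 (0.75) and Hmox1 (0.62). MMTV-PyMT ECs were the nearer tumour for Adamts4 (1.25), Adamts8 (0.81), Arc (1.05), Crispld2 (1.29), Hsd17b7 (0.68), Fosl2 (0.73), Tnfrsf10b (0.93), Slc16a12 (0.92) and Srsf2 (0.92). Of these, Cirbp fell in MMTV-PyMT ECs and Hsd17b7 fell in implanted ECs (−0.45). Litaf, a regulator of Tnf transcription, measured 23.05, 22.2 and 20.46 FPKM under PBS and 59.2, 66.99 and 54.02 FPKM under cGAMP in normal ECs, and Crispld2, a secreted protein, measured 22.2, 15.7 and 20.4 FPKM under PBS and 55.6, 57.7 and 45.8 FPKM under cGAMP, in both cases with no overlap of the groups. Rell1, a member of the RELT family, measured 9.75, 12.3 and 9.98 FPKM under PBS and 29.2, 37.1 and 25.8 FPKM under cGAMP. Litaf overlaps Snn on the other strand. With scaling by total reads 48 of the 60 genes passed both tests. Tppp, Chst12, Myct1, Calcrl, Ch25h, Ptpn14, Hspa1b, Fbln5, Ezh1, Zfp109 and Chordc1 did not pass against implanted ECs, and Notch4 passed against neither. The cause of these differences between tissues was not tested.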

How the results depend on the processing

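Of the genes called in normal ECs (422 higher and 96 lower), all 96 lower genes were called again with a pseudocount of 0.1, without the filter on low values, with quantile normalization, with scaling by total reads and with the replicate block, 93 with voom on recovered reads, 92 with the normal libraries alone and 63 with a mean of at least 5 FPKM, which tests fewer genes. The counts themselves moved to 735 higher and 304 lower with a pseudocount of 0.1, to 774 and 341 with voom, and to 1920 and 2538 without the fold limit, and to 63 lower at a mean of at least 5 FPKM. Leaving out 1 normal library gave 392 to 447 higher and 94 to 157 lower genes, with 157 without cGAMP 1, and 61 of 96 lower and 319 of 422 higher genes were called in every such fit. The replicate block gave 423 higher and 97 lower. The difference from MMTV-PyMT ECs (1171 genes, 405 higher and 766 lower) dropped to 566 (188 and 378) with the replicate block, to 245 at a log2 difference of at least 1, and ranged from 626 (without normal PBS 3) to 1401 without 1 library, with 631 without MMTV-PyMT cGAMP 3, 701 without MMTV-PyMT PBS 3, 702 without normal PBS 2 and 712 without MMTV-PyMT cGAMP 2. The difference from implanted ECs (2602, 851 and 1751) was 655 at a log2 difference of at least 1, 1951 with the replicate block, and 1953 to 2770 without 1 library. Scaling by total reads turned the split of both differences, to 877 higher and 561 lower against MMTV-PyMT ECs and to 2560 and 903 against implanted ECs, and the cause of the other moves was not tested. Of simulated 2-fold falls 6% reached the 2-fold call and 70% passed, and of simulated 2-fold rises 18% and 88%. The added 1 puts a true 2-fold change below the fold limit, so the low shares called follow from the scale. Changes near that size are under-counted in both directions. The simulation gave every gene the same fixed spread.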

Other observations

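Transcripts that do not code for proteins rose more often than they fell in normal ECs, the reverse of protein-coding genes. Of 390 tested antisense genes 78 passed higher and 8 lower (median log2 change 0.28), of 162 lincRNA genes 40 and 18 (0.17), of 79 sense intronic genes 19 and 1 (0.32), and of 489 genes of the annotation class TEC, which await experimental proof, 143 and 4 (0.31). Processed pseudogenes passed higher in 59 of 394 and lower in 13. Of 11941 protein-coding genes 1476 passed higher and 2453 lower (median −0.08). In MMTV-PyMT ECs the medians of antisense and TEC genes were 0.15 and 0.13, and in implanted ECs 0.15 and 0.18. Many of these genes lie within or opposite to a protein-coding gene, and the sources do not say if reads were counted by strand, so their reads cannot be told apart from those of the partner.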
